A study of Mus musculus with 3 samples.

Results

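The Krüppel-like factor (KLF) genes Klf2, Klf4, Klf5, Klf6, Klf9 and Klf10 were examined for binding of ATF4 and CEBPG, a pair of basic leucine zipper (bZIP) transcription factors, in mouse embryonic fibroblasts. These 6 of 21887 protein-coding genes were chosen by name with the peak scores of these same data in view, above all a very strong peak near Klf4. Every value below is therefore a description, and no test of it is given. A peak was counted for a gene when it overlapped the gene's RefSeq span or the 250 kb on either side. The windows held 4 of the 2642 ATF4 peaks and 49 of the 25419 CEBPG peaks, and no peak fell in more than 1 window.

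Chromatin immunoprecipitation sequencing (ChIP-seq) had been done with an ATF4 antibody (C-20), an antiserum against the C-terminus of CEBPG and, in a library not analysed here, a GFP antibody, with 1 library each. All cells were wild-type C57BL/6 primary fibroblasts taken from embryos at E13.5, at passage 3 to 4, plated for 24 hours and then deprived of amino acids for 3 hours. No group with amino acids is among these samples, so the values describe the deprived state alone. Peak lists hold no expression values and no read depth, so neither the identity of the cells nor the precision of a score could be checked, and there is no error between cultures.

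KLF proteins are zinc-finger transcription factors that bind GC-rich and CACCC sequences through a conserved cluster of fingers at the C-terminus and differ in their activating or repressing N-terminal parts. Many KLF genes are induced early by growth factors, hormones or stress. Klf4 is best known as one of the factors that reprogram fibroblasts to pluripotent cells, and it restrains proliferation in epithelia. ATF4 is the transcription factor that accumulates when the integrated stress response slows translation, and CEBPG is a C/EBP protein without a strong activation domain of its own that pairs with ATF4.

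Promoter sequence (RefSeq, GRCm38.p6, the same build as mm10) was matched for 4 members, Klf2, Klf4, Klf6 and Klf9, and not for Klf5 and Klf10. None of the 4 promoters, from 250 bases before to 50 bases after the start, was covered by a peak of either list. The only listed promoter covered by any peak of the 6 windows belonged to a neighbour of Klf4, Rad23b, which encodes a DNA repair and ubiquitin shuttle protein. Its 153 covered bases (chr4:55349792-55349944, plus strand) are given first, since the second-strongest CEBPG peak of the Klf4 window covers them. That peak is 414 bp wide (55349531 to 55349944), so most of it, its centre included, lies outside the printed bases. The 250 bases before the starts of Klf4 (chr4:55532476-55532725, minus strand) and Klf9 (chr19:23140976-23141225, plus strand) follow, as the points from which the distances of those genes' nearby peaks are counted. Each is written 5′ to 3′, and the capitals in the Klf9 promoter mark its single match to the AP-1-like motif TGANTCA.
Rad23b: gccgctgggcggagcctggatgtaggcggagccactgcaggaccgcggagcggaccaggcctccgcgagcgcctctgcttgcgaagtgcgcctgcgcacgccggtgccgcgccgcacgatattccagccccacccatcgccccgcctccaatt
Klf4: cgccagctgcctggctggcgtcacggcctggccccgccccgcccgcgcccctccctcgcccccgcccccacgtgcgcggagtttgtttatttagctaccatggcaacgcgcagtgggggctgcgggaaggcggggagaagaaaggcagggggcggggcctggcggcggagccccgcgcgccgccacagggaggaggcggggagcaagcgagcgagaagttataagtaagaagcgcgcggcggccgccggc
Klf9: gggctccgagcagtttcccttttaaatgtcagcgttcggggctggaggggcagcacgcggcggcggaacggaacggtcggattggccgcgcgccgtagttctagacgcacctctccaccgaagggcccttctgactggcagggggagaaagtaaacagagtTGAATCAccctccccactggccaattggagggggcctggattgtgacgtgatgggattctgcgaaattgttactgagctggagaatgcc

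The motifs searched on both strands were TGATGCAA and the looser TGATGNAA (the C/EBP-ATF composite), TTGCGCAA and the looser TTGCNNAA (C/EBP), TGACGTCA (CRE), TGANTCA (AP-1) and GGGTGTG (the KLF CACCC box). Each looser motif contains the stricter before it. The 4 member promoters held no other match in their 300 bases than the Klf9 one, which began 89 bases before the start. Among all 32851 RefSeq promoters, 7.81% held TGANTCA, 0.895% TGATGCAA, 3.97% TGATGNAA, 0.183% TTGCGCAA, 10.8% TTGCNNAA, 1.79% TGACGTCA and 7.95% GGGTGTG. The Rad23b stretch held none of the motifs, and the rest of that 414 bp peak was not searched. In the same stretch of all promoters, the shares ran between 0.0944% for TTGCGCAA and 6.3% for TTGCNNAA. A missing match says only that these letters are not in the window.

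Of the 6 genes, 3 (Klf4, Klf5 and Klf9) had an ATF4 peak in the window, as did 38.0% of all protein-coding genes. All 6 had a CEBPG peak, against 94.1% of all genes, and 5 had a CEBPG peak with a score of 100 or more, against 46.6%. An overlapping ATF4 and CEBPG pair was in the windows of 2 genes, Klf4 and Klf5, against 10.2% of all genes. With 6 genes chosen for their peaks, these shares say nothing of the family. No ATF4 peak lay within 5 kb of a member (4.94% of all genes had one), and CEBPG peaks lay that close to 3 members, Klf4, Klf5 and Klf9 (29.9% of all genes).

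**Figure D1:**
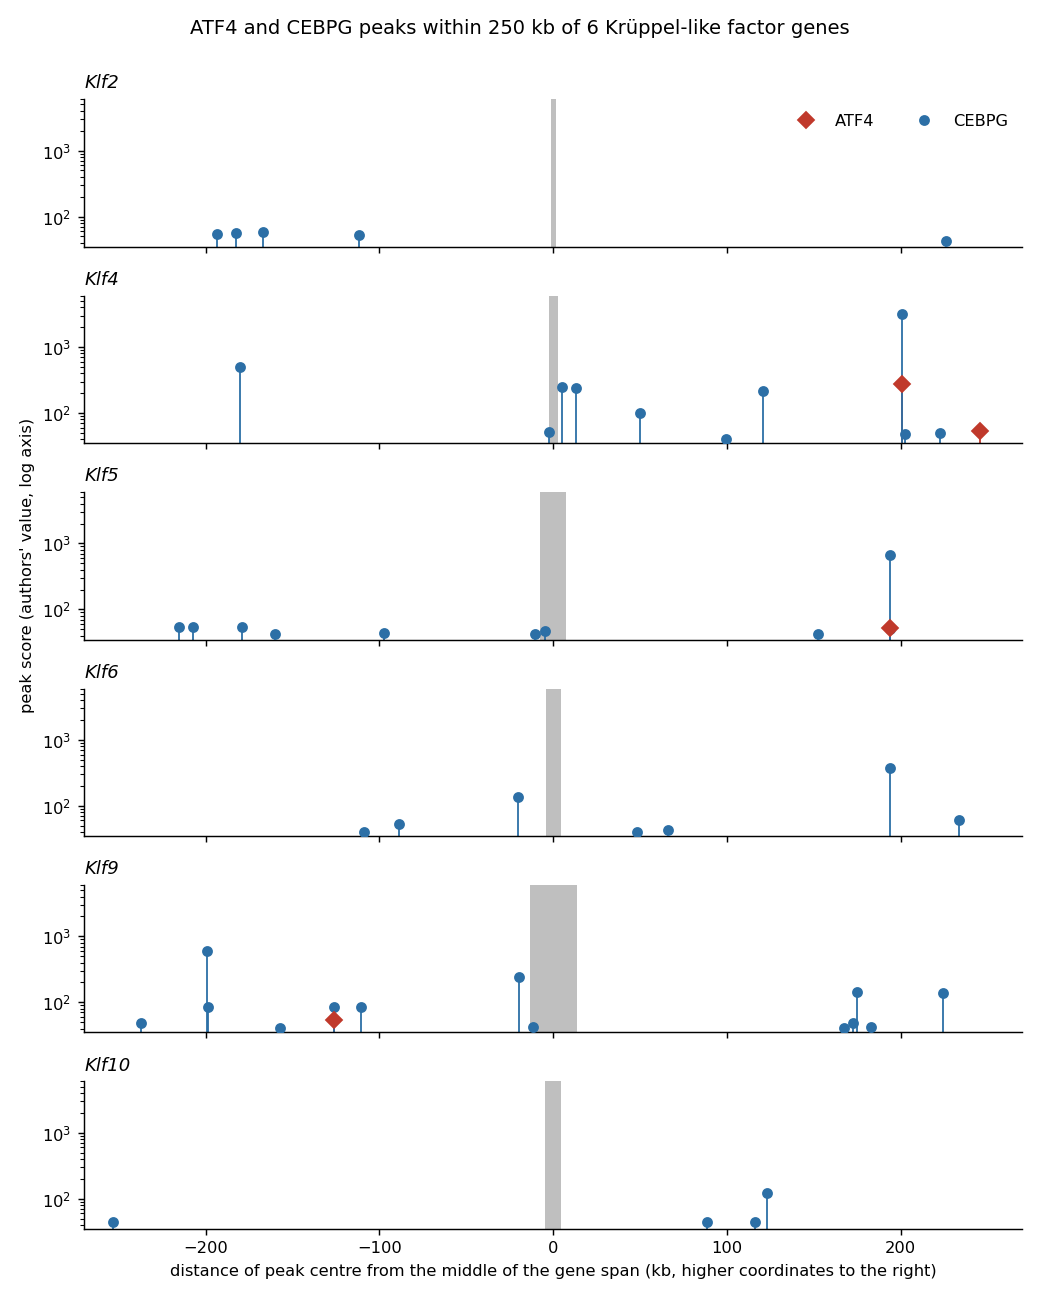
Peak score (the authors' value, log axis) against the distance of each peak centre from the middle of the gene span (kb), with 1 panel per gene, red diamonds for ATF4, blue circles for CEBPG and a grey band for the gene. The Klf4 panel holds the highest score of the 6 windows (3198.58), and the Klf2, Klf6 and Klf10 panels hold no ATF4 peak.

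Klf4 had the strongest sites. An ATF4 peak of score 274.02 (chromosome 4, 55730306 to 55730882) lay inside a CEBPG peak of score 3198.58 (55730095 to 55730920). The score is the authors' own number at the end of each peak name. In the ATF4 list this peak ranked 22 of 2642. Its CEBPG partner was among the 42 CEBPG peaks at or above a score of 3100. At exactly 3100 there were 38 peaks, which looks like a ceiling, so the order of these 42 was not read as an order of strength. Among the 404 overlapping pairs of the whole series, 17 had a higher ATF4 score, and 40, this pair included, had a CEBPG score of 3100 or more. The peaks were wide, 577 bp for ATF4 and 826 bp for CEBPG, against list medians of 164 bp and 131 bp. Their centres lay 87 bp apart.

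The pair was 198 kb upstream of the Klf4 start. Klf4 was the nearest protein-coding gene, and on the far side the next coding gene, Actl7b, began 1210 kb from Klf4. A noncoding gene lay nearer, because the long noncoding RNA gene Gm12506 ends 91.4 kb from the ATF4 peak. Distance alone does not tell which gene, if any, a site acts on. Of the 404 pairs, 75 (18.6%) were more than 100 kb from any protein-coding gene, and 32 of these had a CEBPG score of 1000 or more. The median pair was 1568 bp from a gene.

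The second ATF4 peak of the window (54.0, 55775200 to 55775359) had no CEBPG peak on it. It lay 243 kb upstream of Klf4, close to the edge of the window, and its nearest CEBPG peak (50.11) was 22.6 kb away. Its score ranked 585 in the ATF4 list, whose median was 45.88.

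CEBPG had 9 further peaks around Klf4, and 4 of them scored over 200. The nearest of these 4 (245.19, chromosome 4, 55534438 to 55534983) was centred 2235 bp upstream of the start, and the next (241.0) was centred 10.4 kb upstream. Both lay within Gm12506, which starts next to Klf4 and runs upstream for 106 kb. A peak of 214.71 lay 118 kb upstream, and 1 of 99.02 lay 47.2 kb upstream, inside Gm12511 as well as Gm12506. The strongest of the 9 (503.09) was on the other side, at the Rad23b promoter shown above, 305 bp outside Rad23b and 177 kb from Klf4. It belongs to Rad23b by distance. Inside Klf4 itself there was 1 low peak (50.98), and the remaining 3, at 47.63, 50.11 and 40.72, lay upstream. None of the 9 overlapped an ATF4 peak.

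**Figure D2:**
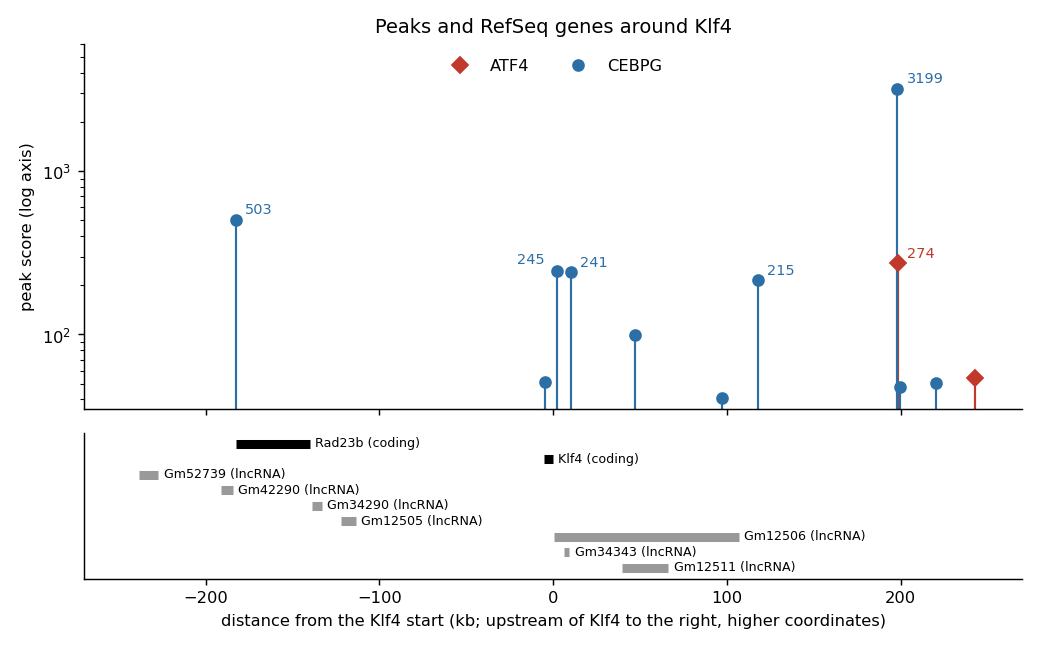
Top, score (log axis) of ATF4 (red) and CEBPG (blue) peaks against the distance from the Klf4 start (kb, upstream to the right); bottom, RefSeq protein-coding genes (black) and long noncoding RNA genes (grey). The pair at 198 kb stands beyond the end of Gm12506, and the CEBPG peaks of 245.19 and 241.0 lie just upstream of Klf4.

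Few windows held as many strong CEBPG peaks as that of Klf4. It had 5 CEBPG peaks of 100 or more, and 99.4% of protein-coding genes had fewer. The window held 10 CEBPG peaks in all, more than 90.9% of genes. For ATF4, 99.3% of genes had a lower top score than Klf4. For CEBPG, 98.9% had a top score under 3100, and Klf4 was among 249 genes at or above it. The places by top score rest on the distant pair, and within 100 kb the CEBPG top score was above that of 86% of genes, with 0 ATF4 peaks. Only 1 other coding gene lay in the Klf4 window, where the median window held 10 coding genes in all.

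Klf2, a close relative of Klf4 and a regulator of endothelial quiescence and T cell trafficking, had no ATF4 peak and no CEBPG peak near it. Its window, the most crowded of the 6 with 16 other coding genes, held 5 CEBPG peaks with scores of 42.46, 52.4, 54.4, 57.26 and 58.63. All 5 lay more than 100 kb from Klf2 and nearer to another gene. Of them, 3 were in or near Tpm4, a tropomyosin gene, 1 was inside Cib3 and 1 inside Med26, a subunit of the Mediator complex.

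Klf5, which promotes proliferation of epithelial and smooth muscle cells, had the other overlapping pair. The ATF4 peak (51.68, chromosome 14, 99499966 to 99500193) lay within a CEBPG peak of 667.69 (99499864 to 99500234). Its score ranked 715 in the ATF4 list, and 286 of the 404 overlapping pairs had a higher ATF4 score. The pair was 187 kb from Klf5, the nearest coding gene, and 21.8 kb from the noncoding gene Gm41230. The strand of Klf5 was not read here, so no side is called upstream. Klf5 and Klf4 thus had pairs at similar distances, with the lower score in each list at Klf5. A second CEBPG peak of 50.53 (99499726 to 99499850) ended just before the stronger one.

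The other 8 CEBPG peaks of the Klf5 window scored between 41.85 and 54.43. Within the gene there was 1 (47.21), and another of 42.89 was centred 3057 bp outside it. A peak of 41.85 lay 145 kb away, also with Klf5 as its nearest gene. The remaining 5 were inside Dis3, a ribonuclease of the RNA exosome, or Pibf1, a centrosomal protein gene.

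Klf6, a KLF gene induced by injury and linked to matrix gene expression in fibrogenic cells, had 7 CEBPG peaks and no ATF4 peak. The strongest was 371.45 (chromosome 13, 6059696 to 6060126), 190 kb beyond the 3′ end of this plus-strand gene, and a second of 134.4 (5845700 to 5846003) lay 15.6 kb upstream of the start. The other 5 scored 40.3, 40.82, 43.4, 52.18 and 61.28. No other coding gene lay in the window, and Klf6 was the nearest coding gene for all 7. The nearest coding neighbours were 1250 kb and 678 kb away, and noncoding genes such as Gm46401 lay nearer to each of these peaks.

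Klf9 and Klf10 encode KLF proteins that repress transcription through the corepressor SIN3A. Klf9 is induced by thyroid hormone and glucocorticoids, and Klf10 by TGF-beta. Klf9 had 13 CEBPG peaks, the most of the 6 genes and more than in 97.2% of coding gene windows. The closest strong one (240.11, chromosome 19, 23134899 to 23135230) was centred 6162 bp upstream of the Klf9 start, inside the noncoding gene 2410080I02Rik. A low one (42.59) lay within Klf9. For the other 11 another coding gene was nearer. The strongest, 597.55, and a neighbour of 83.91 lay inside Trpm3, a cation channel gene, 186 kb and 185 kb from Klf9. Inside Mamdc2 there were 5, led by 144.19 and 139.94.

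The ATF4 peak of the Klf9 window (53.52, chromosome 19, 23028202 to 23028390) did not overlap a CEBPG peak, but 1 of 83.64 (23028401 to 23028630) began after a gap of 10 bp. The centres were 219 bp apart, so the site counts as shared when centres within 250 bp are the rule. It lay 113 kb upstream of Klf9 and inside the noncoding gene C330002G04Rik. By distance to the gene span, Trpm3, at 32.9 kb, was the nearest coding gene.

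Klf10 had the fewest, with 4 CEBPG peaks of 44.07, 44.25, 44.43 and 120.41 and no ATF4 peak. The highest lay 118 kb away and nearer to Azin1, an antizyme inhibitor gene that raises polyamine synthesis, at 68.4 kb. Klf10 was the nearest coding gene only for the peak of 44.07, 83.7 kb away.

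**Figure D3:**
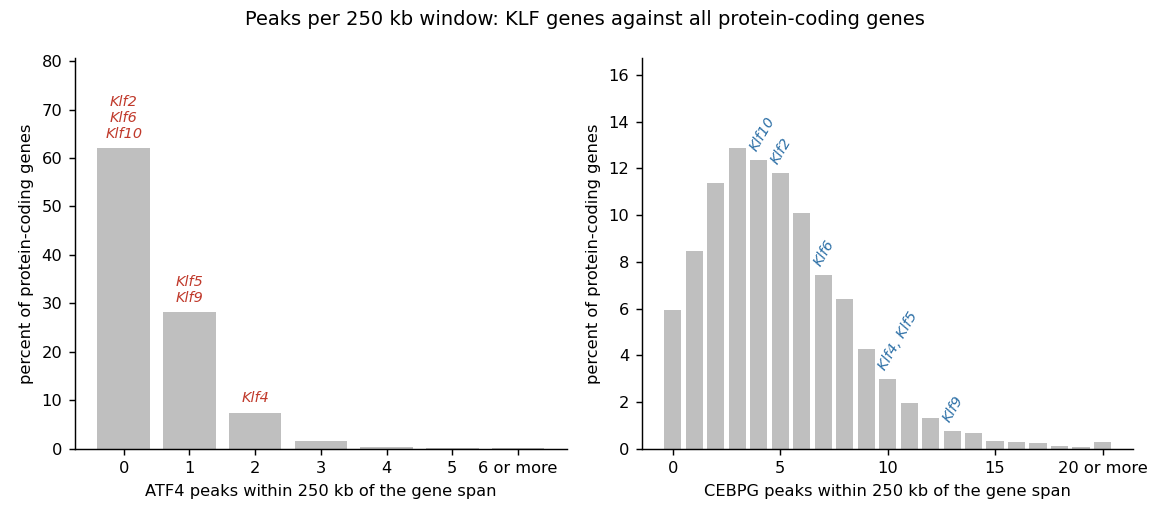
Percent of the 21887 protein-coding genes (bars) by the number of ATF4 peaks (left) and CEBPG peaks (right) within 250 kb of the gene span, with the 6 KLF genes named at their own counts. Klf4 had 2 ATF4 peaks and Klf9 had 13 CEBPG peaks, while Klf2 and Klf10 had 0 ATF4 peaks and 5 and 4 CEBPG peaks. The medians of all coding genes were 0 ATF4 peaks and 4 CEBPG peaks.

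Over the 6 windows, 2 of 4 ATF4 peaks overlapped a CEBPG peak, against 15.1% of the whole ATF4 list. All 4 scored 50 or more, as did 32.1% of the list. Of the 49 CEBPG peaks, 13 (26.5%) scored 100 or more, against 11.7% of the CEBPG list, and Klf4 and Klf9 together held 9 of the 13. The median window score was 53.76 for ATF4 and 52.4 for CEBPG, and the list medians were 45.88 and 47.24. The median number of CEBPG peaks per window was 8.5 for the 6 genes and 4 for all coding genes, and the median number of coding genes per window was 4 for the 6 genes and 10 for all. Gene-poor windows hold fewer other candidates for a peak, which touches every count by nearest gene given here.

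Another coding gene was nearer than the member for 1 of the 4 ATF4 peaks and for 25 of the 49 CEBPG peaks, and 17 of those 25 were inside the other gene. Among the 13 CEBPG peaks of 100 or more, 8 had the member as nearest coding gene, 4 at Klf4, 2 at Klf6 and 1 each at Klf5 and Klf9. When noncoding genes and pseudogenes were counted too, a member was nearest to 0 of the ATF4 peaks and 4 of the CEBPG peaks. The highest CEBPG peak of each member's window lay more than 100 kb from the gene in all 6, and in 55% of the coding genes with any CEBPG peak in the window.

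The edge of the window decided a few cases. The outermost ATF4 peak counted was the Klf4 one at 243 kb (54.0), and the first left out was 286 kb from Klf5 (60.88) with Klf12 as its nearest gene. For CEBPG the first peak left out was 251 kb from Klf6 (40.48). Beyond the Klf10 window, at 302 kb, a CEBPG peak of 311.69 lay nearest to Atp6v1c1, and at 341 kb an ATF4 peak of 64.62 on a CEBPG peak lay nearest to Rrm2b.

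**Figure D4:**
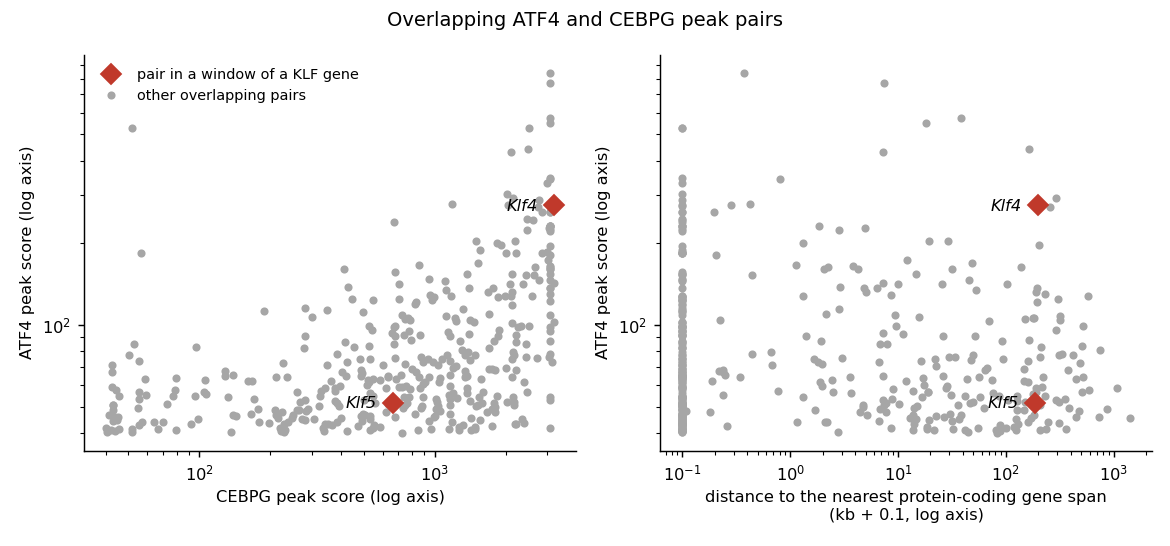
ATF4 score (log axis) of the 404 overlapping pairs against the CEBPG score (left, log axis) and the distance of the ATF4 peak centre to the nearest protein-coding gene span (right, kb plus 0.1, log axis). The Klf4 pair is at the upper right of both panels, and the Klf5 pair has a lower ATF4 score (51.68) at a similar distance.

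The coding genes nearest to the pairs most like the Klf4 one were Ube2v2, Acvr2a, Dpt, Nat1 and 1600014C23Rik. Likeness was the distance in log10 ATF4 score, log10 CEBPG score and log10 of the distance to the gene, over 2 libraries. The closest, Ube2v2, had a pair 256 kb away with scores of 271.14 for ATF4 and 2752.96 for CEBPG. The pair of Acvr2a was 294 kb away (292.94 and 2159.41), that of Dpt 165 kb (442.23 and 2483.45), that of Nat1 205 kb (196.85 and 1907.2) and that of 1600014C23Rik 140 kb (163.08 and 3100). Distant pairs with comparable scores were thus also found beside genes outside the KLF family.

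Of the other 11 KLF genes, 3 had an ATF4 peak in the same window (38.0% of all coding genes), all 11 a CEBPG peak (94.1%) and 8 a CEBPG peak of 100 or more (46.6%). None had an ATF4 peak within 5 kb (4.94%), and 5 had a CEBPG peak that close (29.9%). The highest of these were at Klf3 (390.71), a repressor that binds CtBP proteins, Klf13 (193.66), Klf7 (164.64) and Klf12 (47.16). These peaks lay inside the gene spans, which count as within 5 kb, and the Klf3 one also inside an overlapping gene, Gm38457. Klf7, named after its values were seen, was the single other KLF gene with overlapping pairs (1 of 11, against 10.2% of all coding genes). The pair with the higher ATF4 score (105.4 for ATF4, 1223.19 for CEBPG) had Klf7 as nearest coding gene at 179 kb. The other had a lower ATF4 score (42.83) and a higher CEBPG score (1313.65), and was nearer to 4933402D24Rik. The windows of Klf13 and Klf16 held single ATF4 peaks of 40.67 and 54.87 that no CEBPG peak overlapped. They lay 146 kb and 121 kb from these genes and nearer to Gm45988 and Tcf3. For Klf1, Klf16 and Klf17, named after their values were seen, all CEBPG peaks of 100 or more were nearer to other coding genes. In the other windows with such a peak, the KLF gene was nearest to a peak of this kind.

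The 9 SP genes, the sister family with the same type of zinc fingers, had ATF4 peaks in 8 windows (38.0% of all coding genes) and CEBPG peaks in all 9 (94.1%), 7 of them with a score of 100 or more (46.6%). Neighbouring SP genes shared some of these peaks, such as an ATF4 peak of 42.4 counted for Sp1 and Sp7. Sp3 alone was the nearest coding gene to its ATF4 peaks, and all the others lay nearer to genes outside the SP family. Among the CEBPG peaks of 100 or more, only that of Sp8, named after its values were seen, had the SP gene as nearest. Pairs were in 3 windows (Sp2, Sp6 and Sp7, named after their values were seen), against 10.2% of all coding genes, and lay inside other genes. Those of Sp2 and Sp6 are the same pair, inside Nfe2l1 (98.96 for ATF4, 2503.37 for CEBPG), and that of Sp7 lay in Soat2 (87.26 and 1778.98). Within 5 kb, the single ATF4 peak was inside Sp3 (51.49), and CEBPG peaks were at Sp3 (61.21), Sp1 (48.44) and Sp4 (40.01).

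Among 10 genes for corepressors, coactivators and ubiquitin ligases that act with KLF proteins, 2 had an ATF4 peak within 5 kb (4.94% of all coding genes) and 8 a CEBPG peak (29.9%). The acetyltransferase gene Crebbp had ATF4 peaks of 94.62 and 59.19 inside its span, and Btrc, a ubiquitin ligase subunit, had 1 of 50.56. None of these overlapped a CEBPG peak. The CEBPG peaks near these genes were low, with the highest at Fbxw7 (92.02), Ep300 (73.43), Sin3a (49.69) and Hdac2 (46.56). All but the Hdac2 one lay inside the gene, which counts as within 5 kb. The shares over all coding genes were not matched for gene length. Within 250 kb, 4 of the 10 had an ATF4 peak (38.0% of all coding genes) and all 10 a CEBPG peak (94.1%). A CEBPG peak of 100 or more was in the windows of 6 (46.6%), and an overlapping pair in those of 0 (10.2%). Each of these CEBPG peaks of 100 or more lay nearer to a coding gene outside the list.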

How the data were processed

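Per the submitters' processing notes, the reads were handled with Trimmomatic, BWA, MACS 1.4.2 and HOMER on mm10. Settings and the background used for peak calling are not given in the sources used here. The deposited lists, 1 per library with no pooling recorded, give peak positions and a name that ends in the authors' own score. That score was read from column 4, since column 5 was blank. It starts at 40, looks like a MACS significance score, and was ranked and compared only within its own list, except that the likeness to the Klf4 pair uses both. Depth is unknown.

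Positions are 1-based. Gene spans and promoters came from RefSeq (GRCm38.p6), with 21887 protein-coding genes on the nuclear chromosomes and all 47 genes of the 5 lists matched. A pair overlapped by at least 1 bp, and nearest genes were measured from peak centres to spans (0 inside). Counts within 5 kb include peaks inside the gene, so they also depend on gene length, which was not matched. No test was run. Counting was checked on simulated data. Members and lists were chosen with earlier results of these data known. Named genes were the members, nearest coding genes of the windows' pairs, ATF4 peaks and strong CEBPG peaks, and, per list, genes with an ATF4 peak or the 4 highest CEBPG scores within 5 kb. Neighbours of low CEBPG peaks, flanking genes, genes at the window edges and noncoding genes were named after their values were seen. Computing used Python 3.11.15, numpy 2.4.6 and pandas 2.3.3. Alternatives changed the window, score minimum, overlap rule, gene set and the use of gene starts in place of spans.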

Additional observations from a re-analysis of the deposited data

How the results depend on the processing

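Of 28 alternatives to 9 counts and percentiles, 10 stayed within 1.5 times the main value and 18 did not, mostly because a narrower window or a higher score minimum holds fewer peaks. With windows of 100, 50 and 5 kb the members had 0 ATF4 peaks, in 0 genes, and 16, 10 and 5 CEBPG peaks. Within 5 kb 3 members had a CEBPG peak (29.9% of all coding genes) and 0 an ATF4 peak (4.94%). The shares of all coding genes at 100 and 50 kb are not given here, so the counts there have no background beside them. At 100 and 50 kb the percent of genes with a lower top ATF4 score than Klf4 was 0. With scores of 50 or more, 29 CEBPG peaks were left, and with 100 or more, 13 CEBPG peaks and 1 ATF4 peak, the Klf4 one, which overlapped a CEBPG peak of that score (1 overlapping ATF4 peak against 2). With every RefSeq gene counted, members were nearest to 0 ATF4 and 4 CEBPG peaks. With distances taken to the listed starts of coding genes, members were nearest to 3 ATF4 and 24 CEBPG peaks, the same counts as by span. Klf5 and Klf10 have no listed start, so these need not be the same peaks. Centres within 250 bp gave 3 shared ATF4 peaks, adding the Klf9 one. The depth of the libraries is unknown, so an absent peak may be a site too weak for the list. No paired analysis was possible because each antibody has 1 library and no test was run.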

Other observations

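Klf4 acts beside other pluripotency factors, and 7 of them were looked up with the same windows. An ATF4 peak was in the windows of 2 (38.0% of all coding genes), a CEBPG peak in those of 5 (94.1%), and an overlapping pair in that of 1 (10.2%). That 1 was Pou5f1, named after its values were seen, and the pair (70.81 for ATF4, 1227.48 for CEBPG) was nearer to Ddr1. A CEBPG peak of 100 or more was in the windows of 2 (46.6%). The single gene of the 7 with a CEBPG peak within 5 kb (29.9% of all coding genes) was Myc. It had 220.84 centred 1.7 kb from the gene and 40.65 on its other side. Sox2, named after its values were seen, had no peak of either list within 250 kb.

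Of 10 genes known as KLF targets or induced early with KLF genes, 4 had an ATF4 peak in the window (38.0% of all coding genes), 9 a CEBPG peak of 100 or more (46.6%) and 3 an overlapping pair (10.2%). Within 5 kb there were 0 with an ATF4 peak (4.94%) and 4 with a CEBPG peak (29.9%), Ier2 (549.08), Smad7 (178.25), Acta2 (102.19) and Thbs1 (71.91). Cdkn1a, the p21 cell cycle inhibitor gene and a textbook KLF4 target, was named after its values were seen. It had a pair of 173.28 for ATF4 and 3033.27 for CEBPG at 12.1 kb, with Cdkn1a as its nearest coding gene. The pairs in the windows of Egr1 and Acta2 were nearer to Hspa9 and Ch25h. Among the ATF4 peaks of these windows, only that of the Cdkn1a pair had the listed gene as nearest. For Nos3, Thbd, Tagln and Egr1, named after their values were seen, every CEBPG peak of 100 or more lay nearer to another coding gene. Thbs1, Smad7, Cdkn1a, Acta2 and Ier2 were each nearest to such a peak.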
